A study of Mus musculus with 15 samples.

Results

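The genes described here are 10 regulators of the G1 phase of the cell cycle: the D-type cyclins Ccnd1, Ccnd2 and Ccnd3, the cyclin-dependent kinases Cdk2, Cdk4 and Cdk6, the kinase inhibitors Cdkn1b and Cdkn2c, and the pocket proteins Rb1 and Rbl1. Every Affymetrix probe set that the platform annotation assigns to one of these symbols was taken, which gave 22 of the 22626 probe sets tested. Ccnd2 had 7 probe sets, Ccnd1 and Cdk4 had 3 each, Cdkn1b and Rbl1 had 2 each, and Ccnd3, Cdk2, Cdk6, Cdkn2c and Rb1 had 1 each. The cells were primary neural stem cells of 6-week-old female mice, with the strain given as C57/B16, grown as neurospheres, which are free-floating cell clusters. Control groups are labelled only as control cells, with no agent or genetic change named, and treated groups received CD95L-T4, a trimeric form of CD95L, the ligand that engages CD95 (Fas), a death receptor, for 48 h. Each culture type was read in total RNA and in RNA from polysomes, the clusters of ribosomes that translate an mRNA. There were 4 arrays of control cultures and 4 of CD95L-T4 cultures for total RNA, and 4 of control and 3 of CD95L-T4 cultures for polysomal RNA.

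D-type cyclins are made in response to growth signals and bind Cdk4 or Cdk6. The active kinases phosphorylate the pocket proteins, which then release E2F transcription factors, and E2F switches on genes of DNA replication and Cdk2 cyclins. Cdkn2c binds Cdk4 and Cdk6 directly, and Cdkn1b acts chiefly on Cdk2 complexes. In neural stem and progenitor cells, D-type cyclins and their kinases are known to govern how long G1 lasts.

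All levels below are the deposited log2 intensities of single probe sets, and a difference is log2 of one group over another, with the standard error (SE) of the limma fit. A call is an adjusted p under 0.05 over all 22626 probe sets. Array medians lay between 6.83 and 6.98, correlations within a group were 0.994 to 0.998, and 0 pairs of arrays held identical values. Of 9 measured neural stem cell markers 8 lay above the 50th percentile of all probe sets (median 93.1), against 2 of 8 neuron, 2 of 5 astrocyte and 1 of 5 oligodendrocyte markers, and 0 of the 5 microglia, 4 endothelium and 5 fibroblast markers. Prom1 was the neural stem cell marker below it, at the 14.1 percentile. A column kit served for total RNA and a phenol-chloroform extraction for polysomal RNA, and the labels call the first total RNA and the second polyA RNA, so RNA fraction, preparation and this label cannot be told apart in the comparisons of fractions. One array stood apart: the added poly-A control transcripts averaged 9.86 in CD95L-T4 polysomal replicate 2, against 8.18 and 8.32 in replicates 1 and 3, 8.45 to 9.03 in control polysomal and 7.41 to 8.59 in total RNA arrays. The difference between 3′ and 5′ probe sets of beta-actin was 0.28 to 0.57 in total RNA arrays, 0.74 to 0.81 in control polysomal arrays, and 0.59, 0.68 and 1.03 in CD95L-T4 polysomal replicates 1, 2 and 3. It was higher in every polysomal than in every total RNA array, so it cannot be told apart from RNA fraction either.

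The first comparison asked how these mRNAs were spread between whole-cell and polysomal RNA. The members did not move as 1 group. In control cultures Ccnd1, Ccnd2, Rb1 and Rbl1 each had at least 1 probe set that was lower in polysomal RNA, with Ccnd2 down by as much as 3.28-fold, whereas Ccnd3, Cdk4 and Cdkn2c were higher by 1.21- to 1.36-fold. Cdk2, Cdk6 and Cdkn1b did not pass. limma called 14 of the 22 member probe sets (63.6%), 5 higher and 9 lower, against 56.1% of all probe sets (29.8% higher and 26.3% lower), so the share of calls lay near the background. Their median difference was -0.16, against 0.06 for all probe sets. In CD95L-T4 cultures 11 of 22 were called (50%), 6 higher and 5 lower, against 51.3% of all probe sets (26.7% higher and 24.6% lower), with a median of 0.016 against 0.04. This split moved with the setting: it was 9 higher and 2 lower without CD95L-T4 polysomal replicate 2, and 6 higher and 3 lower without CD95L-T4 total replicate 3 or with the arrays set to equal medians. In bulk samples such as these, fewer cells that hold an mRNA and less of it per cell cannot be told apart.

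**Figure D1:**
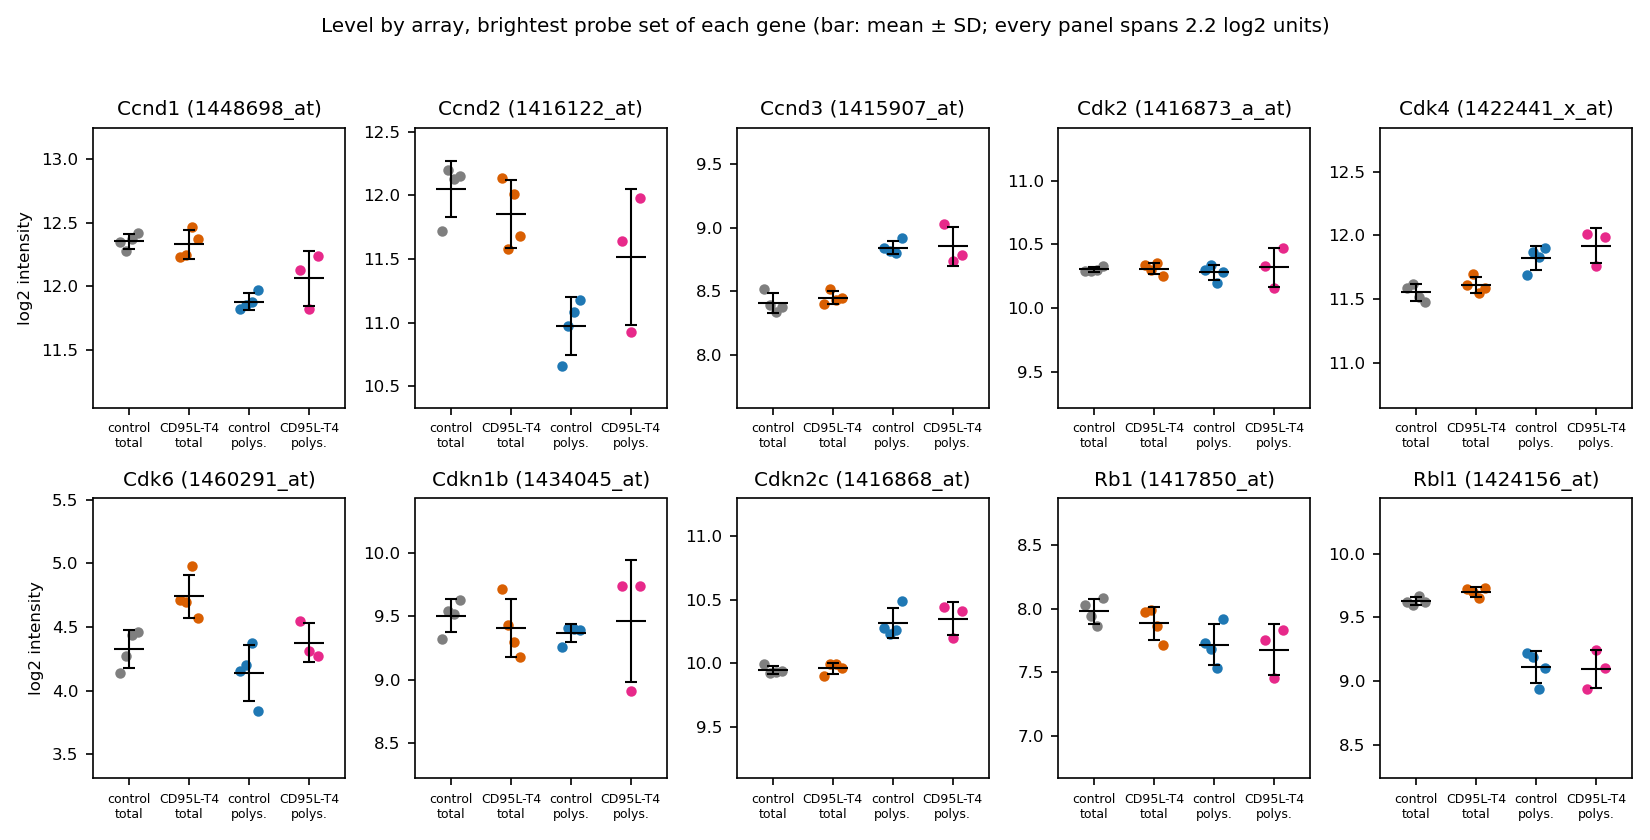
Log2 intensity by array for the brightest probe set of each of the 10 genes, with the 4 groups on the horizontal axis (polys., polysomal); points are arrays and bars give mean ± SD, and panels share a span but not a starting level. Ccnd1, Ccnd2 and Rbl1 sit lower and Ccnd3, Cdk4 and Cdkn2c sit higher in the control polysomal than in the control total arrays, without overlap.

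Ccnd2, the D-type cyclin best known from neural progenitors, showed the widest spread. Its brightest probe set, 1416122_at, read 11.72, 12.20, 12.13 and 12.15 in control total replicates 1 to 4, and 10.66, 10.97, 11.08 and 11.18 in the control polysomal replicates. Every control polysomal array was below every control total array. The difference was -1.08 ± 0.19 (SE, n = 4 and 4), or 2.11-fold lower (limma adjusted p = 8.92e-05). In CD95L-T4 cultures the same probe set read 12.14, 11.58, 12.01 and 11.68 in total RNA and 11.64, 10.93 and 11.98 in polysomal RNA. These groups overlapped, and the difference of -0.34 ± 0.20 (n = 3 and 4) did not pass (limma adjusted p = 0.185). Without CD95L-T4 polysomal replicate 3 it was -0.57 and passed (adjusted p = 0.0296).

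The deepest fall was that of the Ccnd2 probe set 1416124_at. It read 7.74, 8.20, 8.29 and 8.54 in control total arrays and 6.47, 6.82, 6.19 and 6.43 in control polysomal arrays. The difference was -1.715 ± 0.20, or 3.28-fold lower (limma adjusted p = 8.11e-07). In CD95L-T4 cultures it read 8.37, 7.97, 7.93 and 7.66 in total and 7.34, 6.51 and 6.58 in polysomal RNA, again without overlap, and was 2.25-fold lower (difference -1.17 ± 0.21, adjusted p = 0.00016). It was the only Ccnd2 probe set called in both cultures.

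The 7 Ccnd2 probe sets did not read alike. In control cultures 1434745_at, 1455956_x_at and 1430127_a_at were also lower in polysomal RNA, by 1.69-, 1.95- and 1.86-fold (limma adjusted p = 7.33e-05, 0.000609 and 0.000308). By contrast 1448229_s_at stood at 0.09 ± 0.19 and 1416123_at at 0.065 ± 0.25, and neither passed (adjusted p = 0.707 and 0.845). In CD95L-T4 cultures these 2 stood at 0.38 ± 0.21 and 0.46 ± 0.27, above 0 but not called, while 1434745_at, 1455956_x_at and 1430127_a_at stood between -0.34 and -0.21 and were not called either. Leaving out single arrays moved these calls: without CD95L-T4 polysomal replicate 2, 1448229_s_at and 1416123_at were higher by 0.66 and 0.78 (limma adjusted p = 0.00864 and 0.024). The second was also called without CD95L-T4 total replicate 2 (0.67, adjusted p = 0.038). 1434745_at, at an adjusted p of 0.0553 with all arrays, was called lower in 6 alternatives, among them the fit without CD95L-T4 polysomal replicate 3 (-0.53, adjusted p = 0.00206). Which Ccnd2 transcripts each probe set detects was not examined here. Relative to the control mean of the same RNA, the plot of the 7 probe sets by array shows 1416122_at, 1455956_x_at and 1430127_a_at running together within an array. 1434745_at ran with them in polysomal RNA but stayed within 11.77 to 11.93 over all total RNA arrays.

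**Figure D2:**
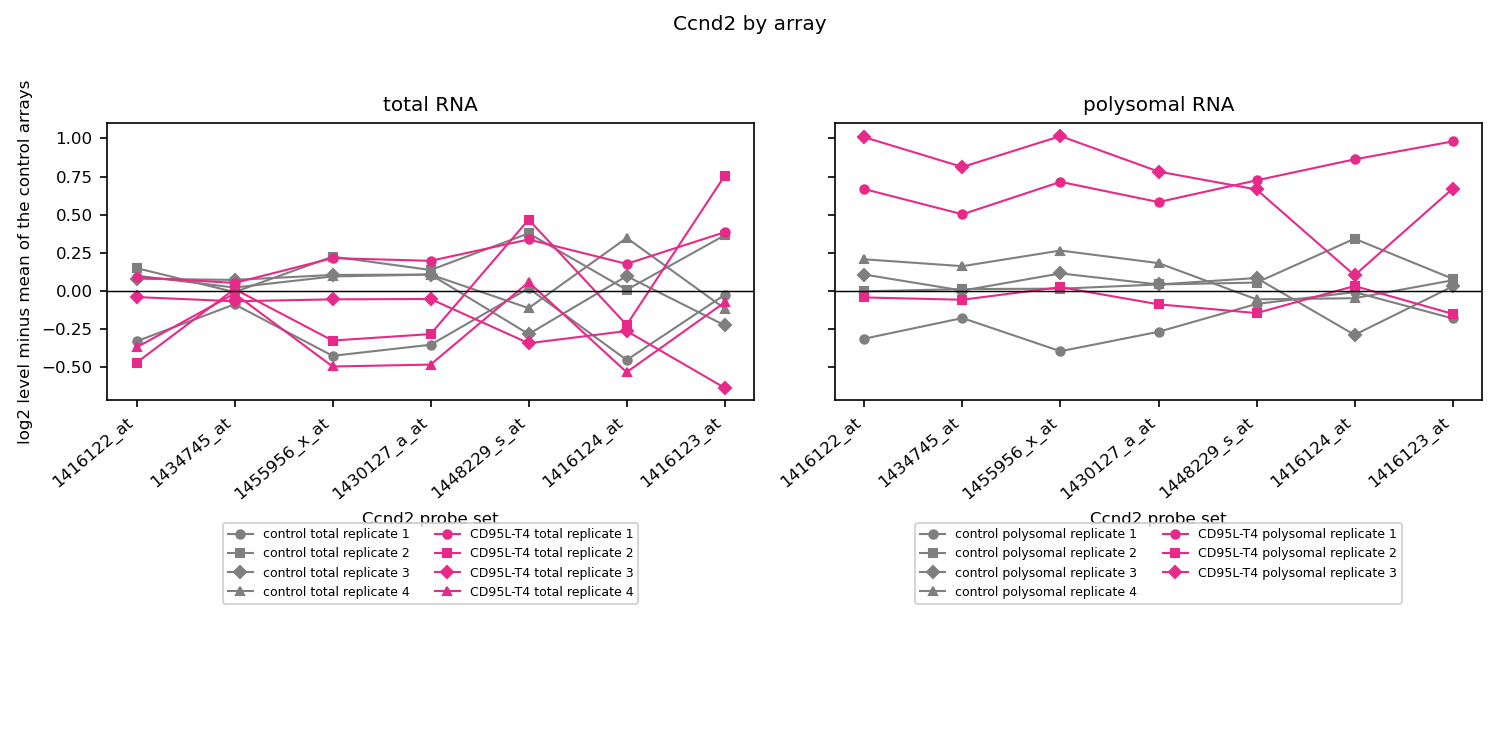
Level of each of the 7 Ccnd2 probe sets in every array, as log2 difference from the mean of the control arrays of the same RNA (vertical axis), with probe sets ordered from brightest to dimmest; lines join the values of 1 array. In polysomal RNA, CD95L-T4 replicates 1 and 3 run above the control arrays for 6 of the 7 probe sets and replicate 2 runs among or just below them.

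Ccnd1, the D-type cyclin most often tied to growth factor signals, was lower in control polysomal RNA with its brightest probe set, 1448698_at. That difference was smaller than the one of the brightest Ccnd2 probe set in control cultures (-0.475 against -1.08). In CD95L-T4 cultures they lay close (-0.27 against -0.34). The Ccnd1 probe set 1448698_at read 12.35, 12.28, 12.37 and 12.42 in control total arrays and 11.82, 11.85, 11.88 and 11.97 in control polysomal arrays. The groups did not overlap, and the level was 1.39-fold lower (difference -0.475 ± 0.09, limma adjusted p = 0.000148). In CD95L-T4 cultures it read 12.23, 12.25, 12.47 and 12.37 in total RNA against 12.13, 11.82 and 12.24 in polysomal RNA. There the highest polysomal array lay within the range of the total RNA arrays, and the difference was -0.27 ± 0.09 (adjusted p = 0.0245). Without CD95L-T4 polysomal replicate 2 it was -0.145 and no longer passed (adjusted p = 0.17). Nor did it pass without CD95L-T4 total replicate 3 or 4 (adjusted p = 0.0737 and 0.0519), under equal array medians (-0.18, adjusted p = 0.135), with array weights (-0.20, adjusted p = 0.116) or with the 2 groups fitted alone (adjusted p = 0.0928).

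The second Ccnd1 probe set, 1417420_at, differed by -0.46 ± 0.10 in control (limma adjusted p = 0.000709) and by -0.36 ± 0.11 in CD95L-T4 cultures (adjusted p = 0.00846). Without CD95L-T4 polysomal replicate 2 the latter was -0.24 (adjusted p = 0.0653). The third, 1417419_at, stood at -0.26 ± 0.14 and 0.08 ± 0.15 and was called in neither culture. Its control total arrays ran from 9.90 in replicate 1 to 10.71 in replicate 2, the widest range of the 3 Ccnd1 probe sets in that group, and without control total replicate 1 the control difference was -0.40 (adjusted p = 0.0113).

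Ccnd3, the third D-type cyclin, lay the other way. It read 8.52, 8.39, 8.34 and 8.38 in control total arrays and 8.84, 8.82, 8.80 and 8.92 in control polysomal arrays. In CD95L-T4 cultures it read 8.40, 8.52, 8.43 and 8.45 in total RNA and 9.03, 8.74 and 8.79 in polysomal RNA. The polysomal arrays were above the total RNA arrays in both cultures, by 1.35-fold (0.44 ± 0.07, limma adjusted p = 6.1e-05) and 1.32-fold (0.40 ± 0.08, adjusted p = 0.000336).

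Because the members are close relatives, the difference between their fraction effects was itself tested for 4 pairs by an exact permutation of the RNA labels within each treatment, two-sided, on the brightest probe set of each gene. Permutations numbered 2450, and p-values were adjusted over the 4 pairs. Ccnd1 differed from Ccnd3 by -0.79 (-0.91 in control and -0.67 in CD95L-T4 cultures; exact p = 0.000408, the smallest these permutations can give, adjusted p = 0.000816). Ccnd2 differed from Ccnd3 by -1.13 (-1.515 and -0.74; exact p = 0.00122, adjusted p = 0.00163). By this test, Ccnd3 was therefore distributed between the fractions unlike the brightest probe sets of Ccnd1 and Ccnd2. Not every Ccnd2 probe set lay apart from Ccnd3. In CD95L-T4 cultures 1448229_s_at and 1416123_at stood at 0.38 and 0.46, near Ccnd3 at 0.40. In control they stood at 0.09 and 0.065, against 0.44 for Ccnd3. All other Ccnd2 probe sets lay below 0 in both cultures. Ccnd1 and Ccnd2 differed by 0.34, with 0.60 in control and 0.07 in CD95L-T4 cultures (exact permutation p and adjusted p = 0.0408). That difference shrank to 0.19 with a gene's probe sets averaged (exact permutation, adjusted p = 0.0873) and ranged from 0.25 to 0.41 when single arrays were left out, with an adjusted p of up to 0.137 without CD95L-T4 polysomal replicate 2.

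The kinases split as well. Cdk4, which phosphorylates pocket proteins with a D-type cyclin, was higher in polysomal RNA with all 3 of its probe sets in both cultures. Its brightest, 1422441_x_at, read 11.59, 11.62, 11.52 and 11.48 in control total and 11.69, 11.87, 11.83 and 11.90 in control polysomal arrays. In CD95L-T4 cultures it read 11.61, 11.70, 11.55 and 11.59 against 12.01, 11.76 and 11.99. The polysomal arrays lay above the total RNA arrays in each case, by 0.27 ± 0.07 (limma adjusted p = 0.00516) and 0.31 ± 0.08 (adjusted p = 0.00381). Under quantile normalization over all arrays the latter was 0.19 (adjusted p = 0.0518). The probe sets 1422440_at and 1422439_a_at stood at 0.36 and 0.445 in control (adjusted p = 0.000418 and 5.38e-05) and at 0.43 and 0.51 in CD95L-T4 cultures (adjusted p = 0.000174 and 3.39e-05).

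Cdk6, the relative of Cdk4 that shares its cyclins, stood at -0.19 ± 0.12 in control (limma adjusted p = 0.183) and fell by 0.36 in CD95L-T4 cultures (SE 0.12, adjusted p = 0.0214). It was dim, at the 22.4 percentile of all probe sets, and ran from 3.84 to 4.98 over the 15 arrays. Its call was lost under equal array medians (-0.27, adjusted p = 0.0819), with array weights (-0.35, adjusted p = 0.0732), and without CD95L-T4 polysomal replicate 2 or 3 or total replicate 3 (-0.33, -0.31 and -0.28, adjusted p 0.0712 to 0.0868). The fraction effect of Cdk4 exceeded that of Cdk6 by 0.56 (0.46 in control and 0.67 in CD95L-T4 cultures; exact permutation p = 0.000408, adjusted p = 0.000816). Cdk2, which acts later with E- and A-type cyclins, lay between 10.16 and 10.47 on all 15 arrays. Its differences were -0.02 (95% interval -0.17 to 0.13) in control and 0.01 (-0.15 to 0.17) in CD95L-T4 cultures, and neither passed (limma adjusted p = 0.808 and 0.927).

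**Figure D3:**
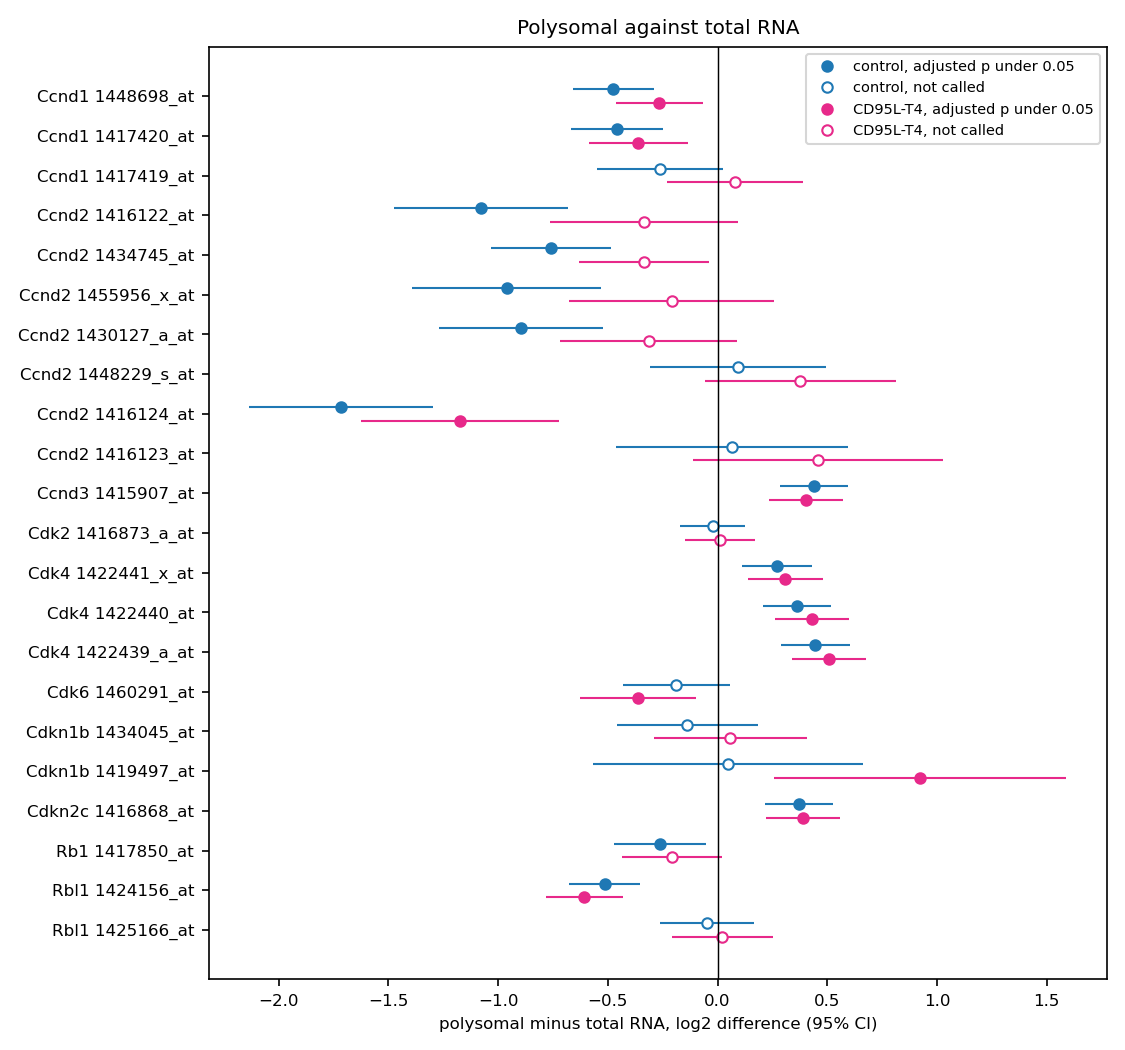
Polysomal minus total RNA, as log2 difference with its 95% interval, for each of the 22 member probe sets in control (blue) and CD95L-T4 (pink) cultures; filled points have a limma adjusted p under 0.05. Most Ccnd1 and Ccnd2 probe sets and 1424156_at of Rbl1 lie left of 0, and Ccnd3, Cdk4 and Cdkn2c lie right of it.

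Of the inhibitors, Cdkn2c, which blocks Cdk4 and Cdk6, was higher in polysomal RNA. It read 9.99, 9.92, 9.93 and 9.94 in control total and 10.28, 10.23, 10.26 and 10.49 in control polysomal arrays. CD95L-T4 arrays read 9.90, 9.99, 9.99 and 9.96 in total and 10.44, 10.20 and 10.41 in polysomal RNA. The groups did not overlap, and the differences were 0.37 ± 0.07 (limma adjusted p = 0.000348) and 0.39 ± 0.08 (adjusted p = 0.000484).

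Cdkn1b, whose protein is removed as cells enter the cycle, was not called in control cultures with either probe set (-0.14 ± 0.15 for 1434045_at and 0.05 ± 0.29 for 1419497_at). In CD95L-T4 cultures 1434045_at read 9.71, 9.43, 9.30 and 9.18 in total RNA and 9.74, 8.91 and 9.74 in polysomal RNA, with replicate 2 below every other of the 15 arrays. The difference was 0.06 ± 0.16 with all arrays (limma adjusted p = 0.799) and 0.335 without that array (adjusted p = 0.0312). The dim probe set 1419497_at rose by 0.92 ± 0.32 in CD95L-T4 cultures (adjusted p = 0.0207), from 6.11, 5.17, 5.24 and 4.55 in total to 6.52, 5.84 and 6.21 in polysomal RNA. The groups overlapped, and the call did not hold without CD95L-T4 total replicate 4 (0.68, adjusted p = 0.072) or polysomal replicate 1 (0.76, adjusted p = 0.101) or 3 (0.91, adjusted p = 0.0539) and with array weights (adjusted p = 0.0574).

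Of the pocket proteins, Rbl1, which binds repressive E2F complexes, was lower in polysomal RNA with its brighter probe set. 1424156_at read 9.62, 9.60, 9.67 and 9.62 in control total and 9.22, 9.19, 8.94 and 9.10 in control polysomal arrays, and 9.72, 9.70, 9.65 and 9.73 against 8.94, 9.24 and 9.10 in CD95L-T4 cultures. No polysomal array reached a total RNA array, and the level was 1.43-fold lower in control (-0.515 ± 0.08, limma adjusted p = 1.65e-05) and 1.52-fold lower in CD95L-T4 cultures (-0.61 ± 0.08, adjusted p = 7.27e-06). The dimmer 1425166_at stood at -0.05 ± 0.10 and 0.02 ± 0.11 and was not called (adjusted p = 0.703 and 0.89).

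Rb1, the retinoblastoma protein gene, read 8.03, 7.94, 7.86 and 8.08 in control total and 7.73, 7.68, 7.53 and 7.92 in control polysomal arrays. The ranges overlapped through polysomal replicate 4, and the difference was -0.26 ± 0.10 (limma adjusted p = 0.0334). The call was lost under quantile normalization over all arrays (-0.18, adjusted p = 0.125) and under equal medians (-0.17, adjusted p = 0.134). It was also lost in 5 of the settings that left out 1 control array, control total replicate 1 or 4 or control polysomal replicate 1, 2 or 3 (adjusted p 0.053 to 0.119). In CD95L-T4 cultures Rb1 stood at -0.21 ± 0.11 (adjusted p = 0.125).

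Promoter windows of 250 bases before to 50 after the annotated start were available from RefSeq (build GRCm38.p6) for 7 of the 10 genes, in 9 windows. They were searched on both strands for the E2F words TTTCGCGC, TTTGGCGC, TTTCCCGC and TTTGCCGC and for the E-box CACGTG, which is the word bound by Myc and related factors and reads the same on both strands. Cdk4 is shown because its window held 4 E-boxes, and Rbl1 and Cdk2 because theirs were the member windows that held an E2F word. Capitals mark the matches, and each sequence runs 5′ to 3′ on the strand of the gene.
Cdk4, chr10:127063285-127063584, plus strand: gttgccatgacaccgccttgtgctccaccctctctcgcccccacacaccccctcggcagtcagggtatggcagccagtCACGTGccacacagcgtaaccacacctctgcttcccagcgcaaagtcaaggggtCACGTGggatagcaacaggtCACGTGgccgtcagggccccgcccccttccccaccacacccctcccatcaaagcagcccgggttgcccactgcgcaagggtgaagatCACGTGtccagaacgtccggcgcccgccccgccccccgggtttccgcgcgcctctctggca
Rbl1, chr2:157204485-157204784, minus strand: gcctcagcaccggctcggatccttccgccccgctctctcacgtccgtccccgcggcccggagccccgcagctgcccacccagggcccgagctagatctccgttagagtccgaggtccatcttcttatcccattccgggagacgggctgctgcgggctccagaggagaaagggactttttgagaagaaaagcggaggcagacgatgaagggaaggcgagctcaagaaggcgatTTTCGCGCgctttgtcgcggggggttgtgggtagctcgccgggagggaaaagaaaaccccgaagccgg
Cdk2, chr10:128705002-128705301, minus strand: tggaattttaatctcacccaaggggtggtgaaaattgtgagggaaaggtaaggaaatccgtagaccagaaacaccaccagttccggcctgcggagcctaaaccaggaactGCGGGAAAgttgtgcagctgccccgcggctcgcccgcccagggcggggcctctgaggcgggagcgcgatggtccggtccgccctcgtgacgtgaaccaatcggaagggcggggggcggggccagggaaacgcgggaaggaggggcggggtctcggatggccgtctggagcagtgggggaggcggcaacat
The Cdk4 matches began 172, 118, 98 and 11 bases before the start, and 0.0244% of all 32851 windows of this length held 4 or more E-boxes. At least 1 E-box was held by 7.15% of windows, among them 1 window each of Cdk6 and Cdkn2c. The E2F word of Rbl1 began 18 bases and that of Cdk2, on the opposite strand, 140 bases before the start, and 2.27% of all windows held such a word. No match overlapped another. These matches are a description of the letters in each window.

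The second comparison asked whether CD95L-T4 changed the level of these genes in whole-cell RNA. limma called 0 of 22 member probe sets, and 0% of all probe sets, in total RNA. The member differences ran from -0.45 to 0.41 with a median of 0.00625 (0.0125 for all probe sets). The 95% interval lay within a 1.5-fold change in either direction for 16 of the 22 and within 2-fold for 21. In the limma fit 846 of all 22626 probe sets had an unadjusted p under 0.05, and of the members only Cdk6 (1 of 22, 4.5%). It read 4.14, 4.27, 4.44 and 4.46 in control and 4.71, 4.70, 4.98 and 4.57 in CD95L-T4 total arrays, which did not overlap. Its difference of 0.41 ± 0.12 had an unadjusted p of 0.00242 and an adjusted p of 0.997 in limma, at the low level noted for this probe set. In polysomal RNA Cdk6 read 4.15, 4.20, 4.37 and 3.84 in control and 4.55, 4.31 and 4.27 in CD95L-T4 arrays, which overlapped (0.24 ± 0.12, adjusted p = 0.545).

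For Cdk2, Ccnd3, Cdkn2c, Rbl1 and Cdk4 the total RNA arrays set narrow limits. The interval of the Ccnd3 difference ran from -0.11 to 0.20, that of Cdkn2c from -0.14 to 0.17, and that of 1422441_x_at of Cdk4 from -0.10 to 0.22. The limits were wider for Ccnd2, where 1416122_at stood at -0.20 with an interval from -0.59 to 0.20. Widest of all was 1419497_at of Cdkn1b, at -0.45 with an interval from -1.07 to 0.16.

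The third comparison asked the same of polysomal RNA. With all arrays limma again called 0 of 22 member probe sets and 0% of all probe sets. Estimates were positive for 20 of 22, with a median of 0.18 against 0.005 for all probe sets, and 13 had a 95% interval within a 1.5-fold change. All 7 Ccnd2 probe sets were on the positive side, at 0.33 to 0.585, and all 3 of Ccnd1, at 0.175 to 0.35. The lowest adjusted p was 0.474, for 1434745_at of Ccnd2. At an unadjusted p under 0.05, 5 members stood out, all higher (1417419_at of Ccnd1 and 1416122_at, 1434745_at, 1455956_x_at and 1430127_a_at of Ccnd2), against 4.52% of all probe sets higher at that p. The probe sets of 1 gene read the same mRNA and are not independent.

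The Ccnd2 values depended on which CD95L-T4 array was read. 1416122_at read 10.66, 10.97, 11.08 and 11.18 in control polysomal arrays and 11.64, 10.93 and 11.98 in CD95L-T4 replicates 1, 2 and 3. Replicates 1 and 3 lay above all controls and replicate 2 lay within them. The pattern was the same for 1434745_at, at 10.92, 11.11, 11.10 and 11.26 in control and 11.60, 11.04 and 11.91 in CD95L-T4 arrays. 1448698_at of Ccnd1 read 11.82, 11.85, 11.88 and 11.97 in control and 12.13, 11.82 and 12.24 in CD95L-T4 arrays, where replicate 2 equalled the lowest control. Replicate 2 also carried the most poly-A control signal of all arrays. The part of that in these values was not tested beyond the fits that follow.

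Without CD95L-T4 polysomal replicate 2, limma called 6 of 22 member probe sets (27.3%), all higher, against 3.17% of all probe sets higher. They were 5 of Ccnd2 and 1 of Ccnd1. The Ccnd2 differences were 0.84 for 1416122_at (adjusted p = 0.0165), 0.66 for 1434745_at (0.0092), 0.865 for 1455956_x_at (0.0286), 0.68 for 1430127_a_at (0.0358) and 0.695 for 1448229_s_at (0.0432). The difference of 1448698_at of Ccnd1 was 0.305 (adjusted p = 0.0434). Ccnd3 stood at 0.065, Cdk2 at 0.12 and the 3 probe sets of Cdk4 at 0.09 to 0.18 in that fit, and none of them passed. The setting compares 2 CD95L-T4 arrays with 4 controls, and 0 members were called in it when the polysomal arrays were fitted alone, or in a fit of all arrays with a covariate for the poly-A control signal. The polysomal comparison and the control fraction comparison share the 4 control polysomal arrays.

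**Figure D4:**
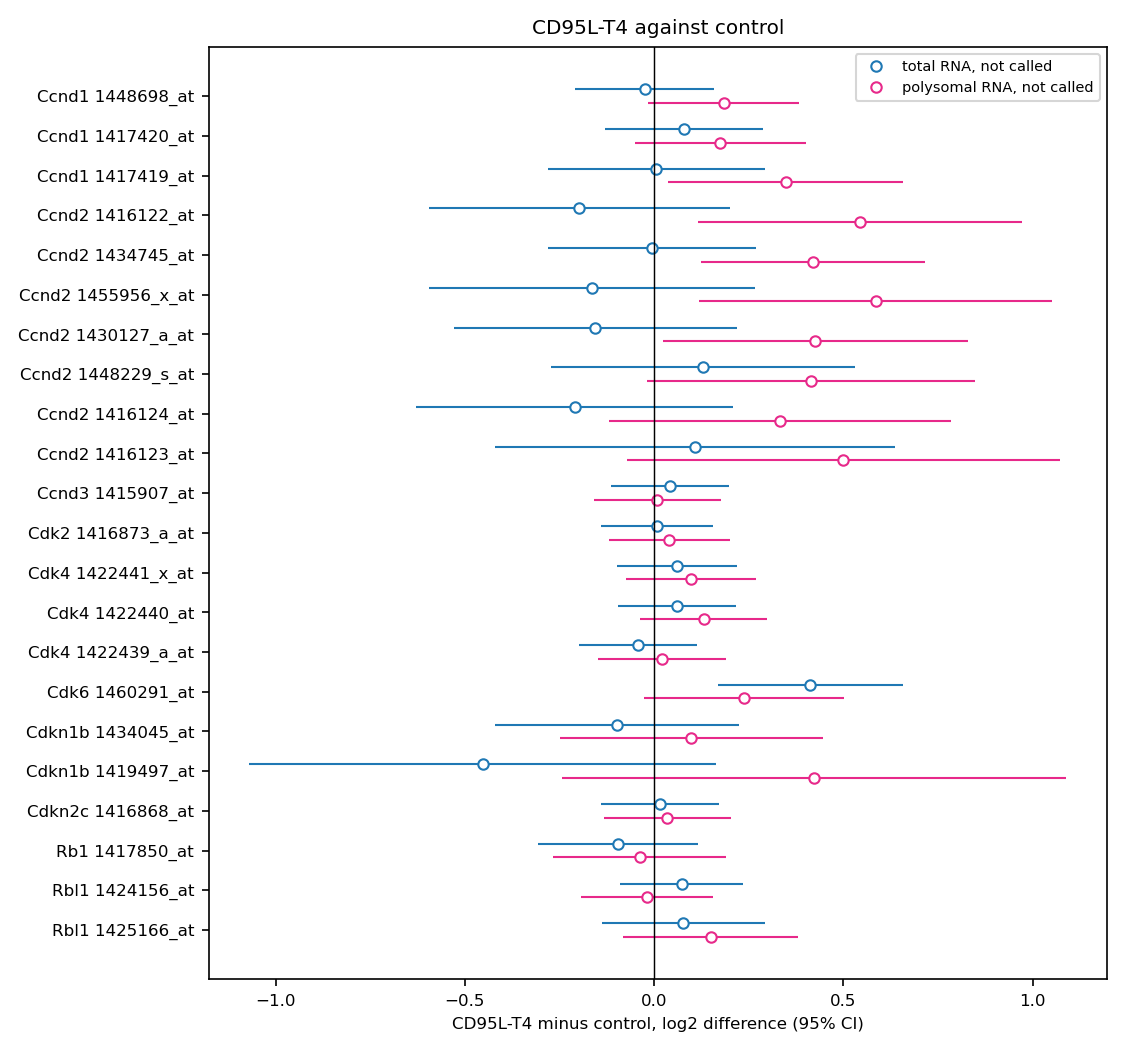
CD95L-T4 minus control, as log2 difference with its 95% interval, for each of the 22 member probe sets in total RNA (blue) and polysomal RNA (pink), with all 15 arrays; open points did not pass the limma test, and 0 of the 44 estimates passed. The Ccnd2 polysomal estimates lie between 0.33 and 0.585.

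The last comparison set the CD95L-T4 effect in polysomal RNA against that in total RNA, as an interaction. limma called 0 of 22 members and 0% of all probe sets. The members had a median of 0.15 (-0.01 for all probe sets), with 19 of 22 positive. In the limma fit 992 of all 22626 probe sets had an unadjusted p under 0.05, and so did 4 members (18.2%), all of Ccnd2. These were 1416122_at at 0.74 ± 0.28, 1434745_at at 0.42 ± 0.19, 1455956_x_at at 0.75 ± 0.30 and 1430127_a_at at 0.58 ± 0.26 (unadjusted p 0.0159 to 0.0408, adjusted p = 0.897 for each). The largest estimate was that of 1419497_at of Cdkn1b, at 0.875 ± 0.43 with an interval up to 1.78 (unadjusted p = 0.0578). Intervals lay within a 2-fold change for 16 of the 22 probe sets. The others were this one and 5 of Ccnd2, whose upper limits ran from 1.13 to 1.38. Without CD95L-T4 polysomal replicate 2 the interaction of 1416122_at was 1.035 (adjusted p = 0.102), and 0 members were called. The fraction difference of Ccnd2, called for 5 probe sets in control and 1 in CD95L-T4 cultures, is thus not shown to differ between the cultures.

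Among 33 other measured genes of the G1 pathway (38 listed, 55 probe sets), 24 probe sets were higher (43.6%) and 9 lower (16.4%) in control polysomal RNA, against 29.8% and 26.3% of all probe sets, with a median of 0.15. In CD95L-T4 cultures 25 were higher (45.5%) and 8 lower (14.5%), against 26.7% and 24.6%, with a median of 0.18. The values below are those of the probe set with the largest called difference of each gene, and the other probe sets of a gene did not always move with it. E2f1, the activating E2F factor, rose with both of its probe sets, by up to 1.405 ± 0.12 in control (limma adjusted p = 1.57e-08) and 1.28 ± 0.13 in CD95L-T4 cultures. The kinase-binding subunit Cks2 rose by 1.13 in control and 0.96 in CD95L-T4 cultures, and the repressive factor E2f5 by 0.975 in control, each with both probe sets called. Cks1b, the relative of Cks2, rose by 1.175 in control with 1448441_at but by 0.24 with the brighter 1416698_a_at. The inhibitor Cdkn1a rose by 0.855 in control and 1.085 in CD95L-T4 cultures. Cdkn2a, a further inhibitor and dim at the 28.9 percentile, rose by 0.97 and 0.96.

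Falls were less uniform within a gene. Skp2, which targets Cdkn1b for degradation, had 6 probe sets, of which 3 were lower in control and 4 in CD95L-T4 cultures, and 0 were higher. The largest fall was that of 1425072_at, which fell by 0.73 in control and fell by 0.895 in CD95L-T4 cultures, while 1436000_a_at stood at 0.065 and 0.27 and was not called. The third pocket protein gene, Rbl2, fell by 0.42 and fell by 0.36 with 1418146_a_at, whereas the brighter 1425981_a_at stood at -0.09 and -0.08 and was not called (limma adjusted p = 0.509 and 0.576). Ccnh, the cyclin of the CDK-activating kinase, fell by 0.40 and fell by 0.32 with 1418584_at. Its brightest probe set, 1456293_s_at, was called lower in control (-0.36, limma adjusted p = 0.00159). In CD95L-T4 cultures that probe set stood at -0.21 and was not called (adjusted p = 0.0649). The remaining 1418585_at stood at 0.03 and 0.18 and was not called. Ccna2, an A-type cyclin, fell by 0.35 in control with 1417911_at, and the brighter 1417910_at stood at -0.09 (adjusted p = 0.46). Cul1, the scaffold of the ligase that holds Skp2, fell by 0.295 in control and fell by 0.32 in CD95L-T4 cultures.

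Of 39 probe sets of 19 measured genes switched on by E2F, 23 were lower (59.0%) and 5 higher (12.8%) in control polysomal RNA, against 26.3% and 29.8% of all probe sets, with a median of -0.43. In CD95L-T4 cultures 22 were lower (56.4%) and 7 higher (17.9%), against 24.6% and 26.7%, with a median of -0.39. Rrm1, a subunit of ribonucleotide reductase named here after its values were seen, fell by 1.14 in control and fell by 1.12 in CD95L-T4 cultures. E2f1 is itself among these targets, and also among the other G1 genes, and was higher. For CD95L-T4 against control, 0 probe sets of either list passed in total RNA, polysomal RNA or the interaction. The lowest p-values in the other G1 list were those of Cdc37 (0.275) and Cdkn1a (-0.20) in total RNA, of Cdk1 (0.24) and Fbxw7 (0.27) in polysomal RNA, and of E2f6 (-0.27) and Fbxw7 (0.34) for the interaction, with adjusted p of at least 0.494.

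**Figure D5:**
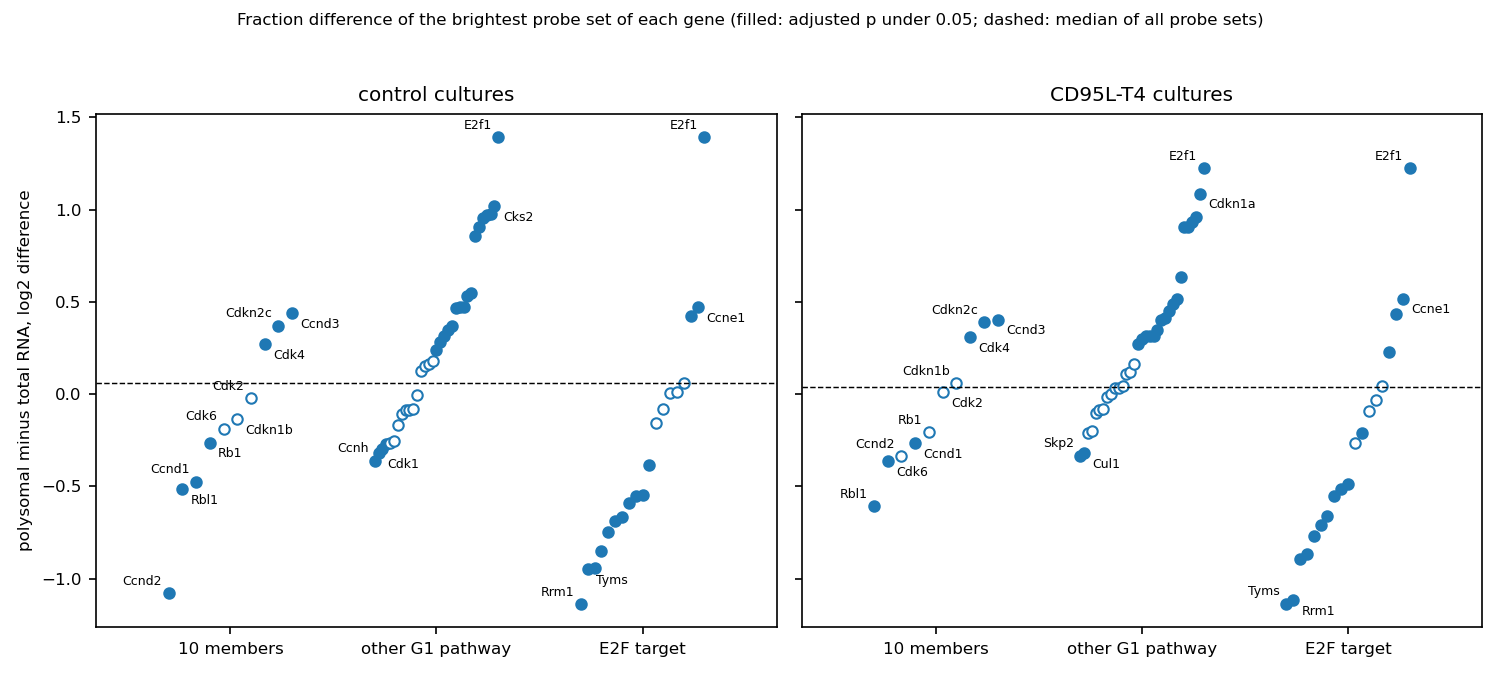
Polysomal minus total RNA (log2 difference, vertical axis) for the brightest probe set of each member, of each of the other G1 genes and of each E2F target, in control and CD95L-T4 cultures; filled points have a limma adjusted p under 0.05, the dashed line is the median of all probe sets, and names are given for the members and for the 2 highest and 2 lowest genes of the other lists. Members reach down to Ccnd2 at -1.08 in control cultures, and E2f1, which is in both other lists, stands at the top of each.

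The genes whose levels ran most like each D-type cyclin over the 15 arrays were listed as a description, since all arrays share the split between fractions. For 1448698_at of Ccnd1 they were Eps15 (r = 0.980), Atxn10 (0.969) and Zbtb20 (0.963). For 1416122_at of Ccnd2 they were Cnot6l (0.956), Qk (0.954) and Camkk2 (0.953), which stood at -0.65, -0.645 and -0.50 for polysomal against total RNA of control cultures. For Ccnd3 they were Prkag2 (0.982), Rnf8 (0.980) and Gpn3 (0.980), which stood at 0.775, 0.50 and 0.415 in the same comparison.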

How the data were processed

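Levels were measured on 15 Affymetrix mouse arrays in 4 groups read from the sample titles, which call the replicates biological. Per the deposited table, values are log2 intensities normalised between arrays by the authors, rounded to 2 decimals, and the method is not given in the sources used here. Precision is limited by how many arrays there are, since no reads were counted. All value columns belonged to mapped samples. Of 22690 probe sets, 22626 were tested and the 64 Affymetrix controls were not. Probe sets were named through the platform annotation.

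From these values, limma 3.58.1 under R 4.3.3 fitted 1 mean per group over all arrays with empirical Bayes moderation, and 5 two-sided contrasts were adjusted by Benjamini and Hochberg over all probe sets tested. The brightest probe set of a gene has the highest mean over all arrays. All member probe sets are named. Of the other G1 list the named genes are, in each contrast, the 4 called genes that rose most and the 4 that fell most, or the 2 smallest p-values where none was called, and for each D-type cyclin the 3 probe sets of other genes with the highest correlation. The members and lists were chosen with earlier results of these data known. The limma fit was tested on simulated data, and the permutation tests were not.

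The labels do not state that same-numbered arrays come from the same culture, so the reported fit has no block. How same-numbered arrays deviated is given in the closing section. Alternatives were other scalings between arrays, filters on dim probe sets, the groups compared alone, array weights, a trended robust variance, a size threshold, a replicate block, averaging a gene's probe sets, and omitting single arrays. The fit of polysomal arrays alone without 1 array and the poly-A covariate were chosen after seeing the data.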

Additional observations from a re-analysis of the deposited data

Results flagged for a closer look

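In 66 groups of 4 arrays (1 member probe set in 1 group each), the gap of the highest or lowest array to its nearest neighbour was compared with the range of the group, and 3 gaps exceeded Dixon's 95% critical value. Chance alone gives about 1 in 20 such groups. For 1416122_at of Ccnd2 control total replicate 1 read 11.72, below 12.13 to 12.20 in the others, a gap of 0.854 of the range. The same array read 10.86 for 1430127_a_at of Ccnd2, below 11.32 to 11.35, a gap of 0.939. For 1434045_at of Cdkn1b control polysomal replicate 1 read 9.26, below 9.39 to 9.41, a gap of 0.867. Control total replicate 1 also had the largest 3′ minus 5′ difference of beta-actin in its group (0.57, against 0.28 to 0.40). Over the 8 total RNA arrays, 1416122_at and 1430127_a_at had r = -0.76 and -0.78 with that difference (exact permutation, adjusted p = 0.165 and 0.15). The same array had the lowest poly-A control signal of its group (7.46). The part of these measures in the gaps was not tested further.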

How the results depend on the processing

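No called direction of a member turned under any alternative. With single arrays left out, the count of member probe sets called was 0 to 6 for the polysomal effect. The 6 came without CD95L-T4 polysomal replicate 2, and 0 came in every other setting. For the other G1 list it was 0 to 5 of 55 probe sets, with the 5 in the same setting. There 1386 of all 22626 probe sets were called. With single arrays left out, the member count was 13 to 14 for the fraction effect in control and 9 to 12 in CD95L-T4 cultures. The split in the latter ran from 5 higher and 6 lower without CD95L-T4 polysomal replicate 3 to 9 higher and 2 lower without replicate 2. Array weights gave 8 members there, 5 higher and 3 lower, against 10362 of all 22626 probe sets. Requiring a difference of at least 0.5 in log2 left 6 members in control and 4 in CD95L-T4 cultures, and 17 and 16 probe sets of the other G1 list, which follows from the added threshold. The share over all probe sets was not computed for this threshold. The difference between Ccnd1 and Ccnd2 was 0.194 with a gene's probe sets averaged and 0.25 to 0.4075 with single arrays left out, not passing in 11 of 15 of them. For the cause, no test was made. Among single probe sets 7 control calls were lost, all of Rb1, and 17 in CD95L-T4 cultures, among Ccnd1, Cdk4, Cdk6 and Cdkn1b. The paired check compared 14 pairs of same-numbered arrays, whose deviations correlated at -0.234 to 0.197, with 3 over 0.1. Arrays of unlike number were not compared, so the check cannot show whether same-numbered arrays came from the same culture. With a replicate block limma called 14 members in control and 11 in CD95L-T4 cultures, against 12731 and 11597 of all 22626 probe sets. In the other contrasts it called 0 members and 0 of all probe sets. The comparison restricted to 2 groups has no form for the interaction and was not run there. The 3 arrays of CD95L-T4 polysomal RNA and the low signal of Cdk6 and 1419497_at of Cdkn1b limit what can be resolved.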

Other observations

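Within the 8 total RNA arrays the levels of several Ccnd2 probe sets ran with the added poly-A controls, which are not cell RNA. Over 88 relations (22 member probe sets, 2 array measures, 2 RNA fractions), each with an exact permutation test adjusted over all of them, 2 passed, and both were of Ccnd2. For 1430127_a_at Pearson's r was 0.894 (n = 8 arrays, exact p = 5e-05, adjusted p = 0.0044) and Spearman's rho 0.994 (exact p = 9.9e-05). For 1455956_x_at r was 0.890 (exact p = 0.000198, adjusted p = 0.00871) and rho 0.952 (exact p = 0.00114). Without the 2 arrays farthest from the median of the controls, r was 0.941 and 0.957. Control and treated arrays are pooled in these values, and groups of 4 are too small for a value within each. In the 7 polysomal arrays the same probe sets stood at r = -0.67 and -0.57 (exact permutation p = 0.1 and 0.187, adjusted p = 0.31 and 0.402), and Ccnd2 probe sets there lay between -0.73 and -0.55. Of the members, 20 of 22 were negative against the poly-A controls in polysomal RNA, down to -0.93 for 1434045_at of Cdkn1b and -0.89 for 1422439_a_at of Cdk4. Before adjustment 9 of 22 members in total RNA and 5 of 22 in polysomal RNA had an exact p under 0.05 with these controls. With the actin 3′ to 5′ difference, 5 of 22 members had an exact p under 0.05 in total RNA and 0 in polysomal RNA, and 0 passed the adjustment. All these relations were computed for the members only. The share over all probe sets was not computed, so none of these counts is shown to be particular to the members.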
